A study of Mus musculus with 6 samples.

Results

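The machinery through which a secreted or membrane protein enters and is folded in the endoplasmic reticulum (ER) was followed in sorted mouse hepatocytes that carried a miR-206 transposon and in hepatocytes sorted as controls. It was taken as a list of 45 genes for signal recognition, the Sec61 translocon, signal peptidase, oligosaccharyltransferase, ER folding and ER-associated degradation, out of 49315 genes in the count table. Of these, 44 were found by name and 1, Srp54a, by its Ensembl identifier, since the table lists it as Srp54. Bulk RNA sequencing gave 6 libraries, 3 labelled miR-206 and 3 labelled control. The miR-206 libraries came from GFP-positive and the control libraries from GFP-negative hepatocytes of male C57BL/6J mice. By the design text, 8-week-old mice were injected hydrodynamically, a rapid injection that carries plasmid into hepatocytes, with a transposon plasmid (20 µg) whose transthyretin (Ttr) promoter drives both miR-206 and GFP. A plasmid that supplies the Sleeping Beauty transposase (0.8 µg) was injected with it, and hepatocytes were isolated 4 weeks later. The labels give the miR-206 samples a miR-206 overexpression genotype and a miR-206 treatment. They give the control samples a wild-type genotype and an empty vector treatment, whereas the design text takes the GFP-negative cells of the injected mice as control. Under the design text both fractions had gone through the same injection, perfusion and sort, and differed in GFP, which follows promoter activity and copy number as well as the presence of the transposon. The Ttr promoter is used for expression in hepatocytes. No source used here says whether the numbered libraries of the groups share an animal, so p-values measure the spread between these 6 libraries.

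Most proteins that hepatocytes make for the blood begin with a signal sequence, which the signal recognition particle binds as it leaves the ribosome. The chain is threaded through the Sec61 channel, signal peptidase removes the signal sequence, and oligosaccharyltransferase attaches glycans to the chain. Inside the ER, protein disulfide isomerases form disulfide bonds, calnexin and calreticulin hold glycoproteins while they fold, BiP and GRP94 act as general chaperones, and chains that do not fold are sent back to the cytosol for degradation. The unfolded protein response raises many of these genes together when folding capacity runs short.

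Total counts were 4157947, 4939030 and 5724329 in the miR-206 libraries, against 8966590, 15244017 and 14071679 in the controls. The libraries differed in other ways too. Mitochondrially encoded genes held 11.2, 63.8 and 48.7% in the miR-206 libraries, against 36.0, 9.16 and 10.4% in the controls, where the groups overlap. Olfactory and vomeronasal receptor genes, which hepatocytes are not known to use, had per exonic kb 5.31, 3.60 and 5.24 counts in the miR-206 libraries, against 2.95, 1.39 and 1.22 counts in the controls, so that reads spread evenly over exons at that rate would make up 15.4% to 24.1% of nuclear-gene counts in the miR-206 libraries and 0.979% to 5.49% in the controls. Values are therefore given for the counts as deposited and again after subtraction of this background. Control library 1 was unlike the other controls. Across genes, Pearson's r of log2 CPM was 0.887 and 0.891 between it and controls 2 and 3, and 0.981 between those 2. Genes are not independent replicates, so these are descriptions. Mir206 had 0 counts in all 6 libraries, in a preparation for mRNA, so the table does not check the labels on that gene. In bulk samples, fewer cells of a type and less RNA per cell cannot be told apart.

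On the TMM scale most transcripts of the machinery were lower in the miR-206 libraries. CPM, the library-scaled counts used below, take their scaling from the TMM factors of edgeR. Of the 45 genes 44 passed the filter on low counts and were tested, 36 fell, 0 rose and 8 did not pass the test (edgeR quasi-likelihood test, adjusted p under 0.05). Of all 24382 genes tested 29.6% fell and 25.8% rose. The median log2 fold change was -2.20 over the 44 genes and 0.45 over all genes tested, and each of the 44 lay below the median of all genes. For 43 of the 44 the highest miR-206 CPM was below the lowest control CPM, as it was for 30.3% of all genes tested. DESeq2 called 44 of the 44 lower and 0 higher. Of the 36 falls 28 passed in all 6 fits that left out 1 library and 10 passed under all 6 other scalings. The 8 that were lost without some library were Ssr1, Spcs3, Ddost, Stt3a, Canx, Uggt1, Hsp90b1 and Hyou1. The 8 genes that did not pass were Rpn1, Rpn2, Pdia3, Pdia4, Pdia6, P4hb, Calr and Hspa5, and by an unadjusted p under 0.05 0 genes were higher in the miR-206 libraries. The fold changes ran from -4.68 for Herpud1 to -0.92 for Pdia4, so the values differed widely along the pathway.

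**Figure D1:**
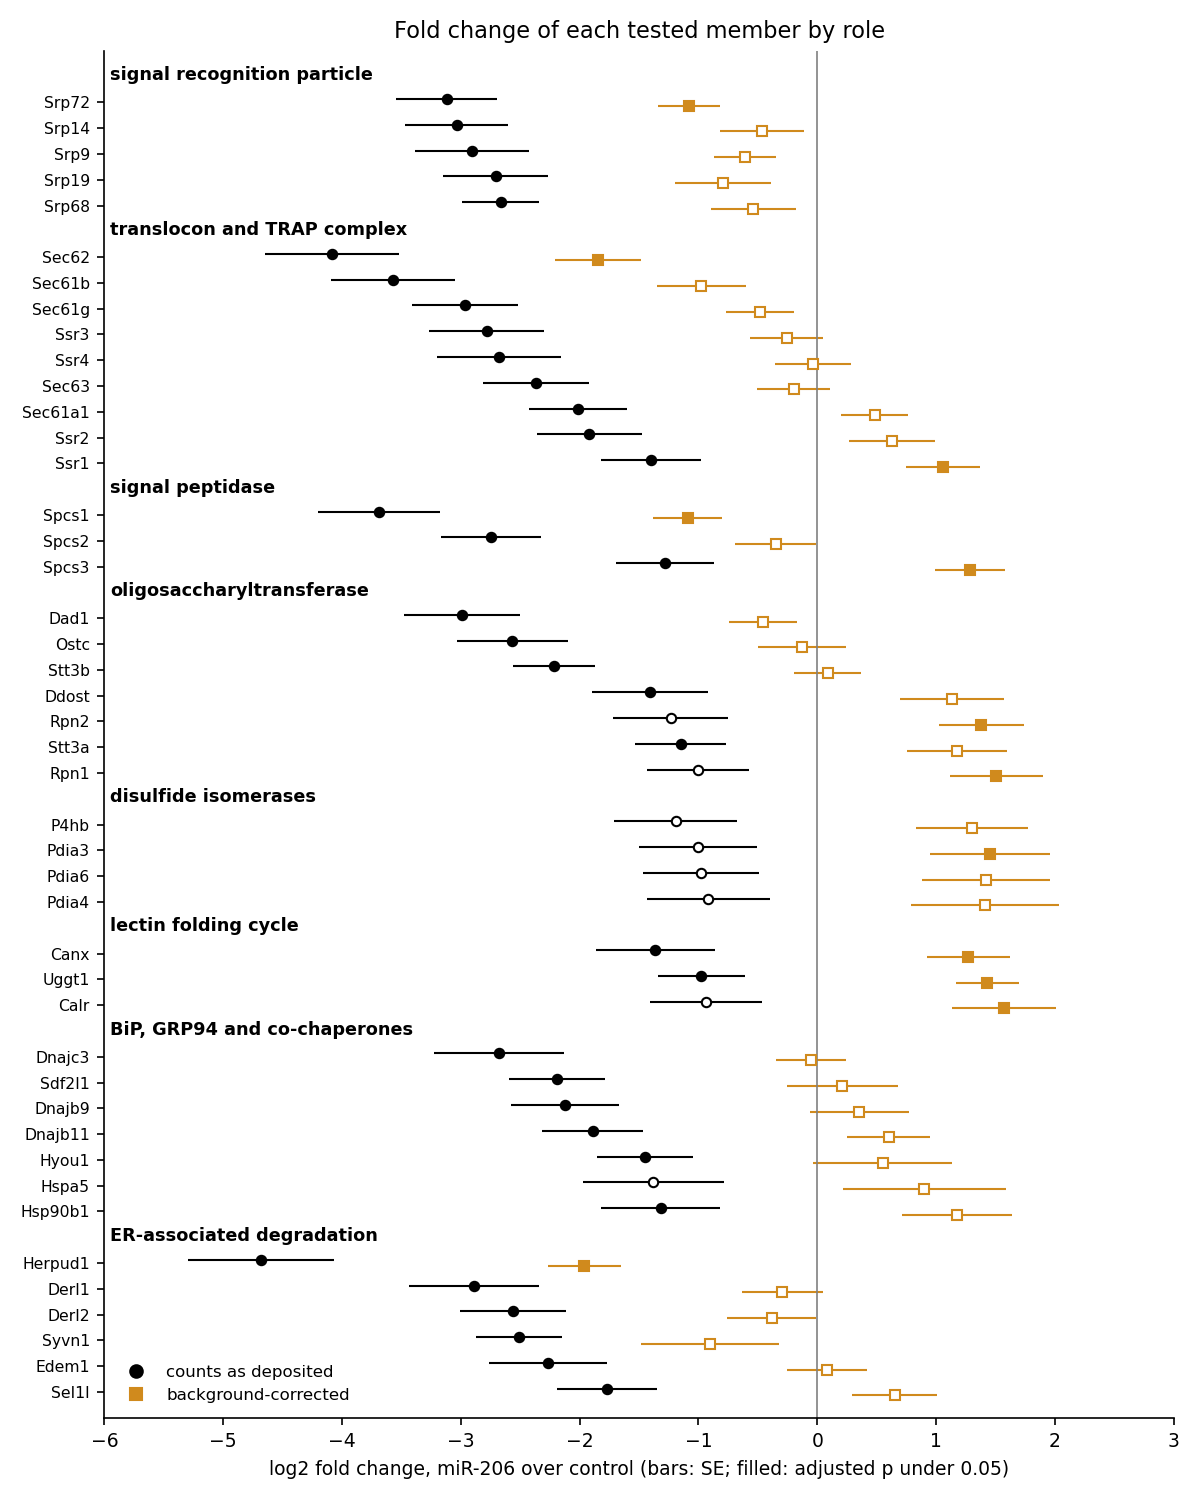
Log2 fold changes (miR-206 over control, x axis) of the 44 tested genes, grouped by role, for counts as deposited (black circles) and after background correction (orange squares), with bars for SE and filled symbols for adjusted p under 0.05. As deposited every value is below 0, from -4.68 for Herpud1 to -0.92 for Pdia4, and after correction the values run from -1.96 for Herpud1 to 1.57 for Calr.

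After background correction most of the genes no longer passed, and those that did went both ways. The corrected fit held 6580 nuclear protein-coding genes, of which 18.5% rose and 20.7% fell, with a median log2 fold change of -0.23. All 44 genes were in it: 8 rose, 4 fell and 32 did not pass, and their median was 0.15, with 24 of 44 above 0 and 16 of 44 below the median of all genes. Subtraction alone, with no minimum above background, gave a median of -1.51 over the 44 genes, with 0 rises and 28 falls. The median then depended on how far above background a gene had to be to enter the fit and its scaling: -0.34 at 5 times, 0.15 at 10 times and 0.53 at 20 times. The 8 that rose at 10 times were Ssr1, Spcs3, Rpn1, Rpn2, Pdia3, Calr, Canx and Uggt1. The 4 that fell were Srp72, Sec62, Spcs1 and Herpud1, all of which had also fallen in the counts as deposited. The minimum was set on the average over all 6 libraries, so a gene could enter the fit through the controls alone. In the miR-206 libraries Srp72 was at 2.24 to 2.81 times background and Sec62 at 2.11 to 4.03 times. Spcs1 was there at 7.54 to 14.99 times and Herpud1 at 19.4 to 25.8 times. The number of rises depended on the scaling and on single libraries: 1 of the 44 rose with library size alone, 0 rose when libraries were scaled on genes for secreted plasma proteins, and 2 rose without control 2, without control 3 or without miR-206 library 3, 5 without miR-206 library 1, 11 without miR-206 library 2 and 16 without control 1. Spcs3 and Uggt1 rose, and Sec62 and Herpud1 fell, in all 6 corrected fits that left out 1 library. Those fits reused the genes that met the minimum over all 6 libraries, so they do not check that choice. The rises of Spcs3 and Uggt1 did not pass with library size alone or scaled on the secreted plasma protein genes.

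The sum over the 45 genes shows how far its direction follows the denominator. Summed CPM were 4702, 2135 and 3290.4 in the miR-206 libraries, against 9811, 10621 and 10861 in the controls, with no overlap. As a share of the counts of nuclear protein-coding genes, the sum was 1.13, 0.819 and 1.00% in the miR-206 libraries, against 1.44, 0.772 and 0.800% in the controls, where the groups overlap and control 1 is highest. The widest 95% Wilson interval on these shares was 0.805% to 0.834%, in miR-206 library 2, and it covers counting error only. Against the transcripts whose products the machinery handles, a list of 32 secreted plasma protein genes such as Alb, Apoa1 and Fgb, there were 2.96, 3.60 and 3.20 machinery counts per 100 counts in the miR-206 libraries, against 5.68, 2.83 and 2.87 machinery counts per 100 counts in the controls. On that measure the miR-206 libraries were above controls 2 and 3 and below control 1. The 32 genes themselves held 0 rises and 14 falls, with a median log2 fold change of -1.47 as deposited and 1.21 after correction, when 19 rose and 0 fell.

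**Figure D2:**
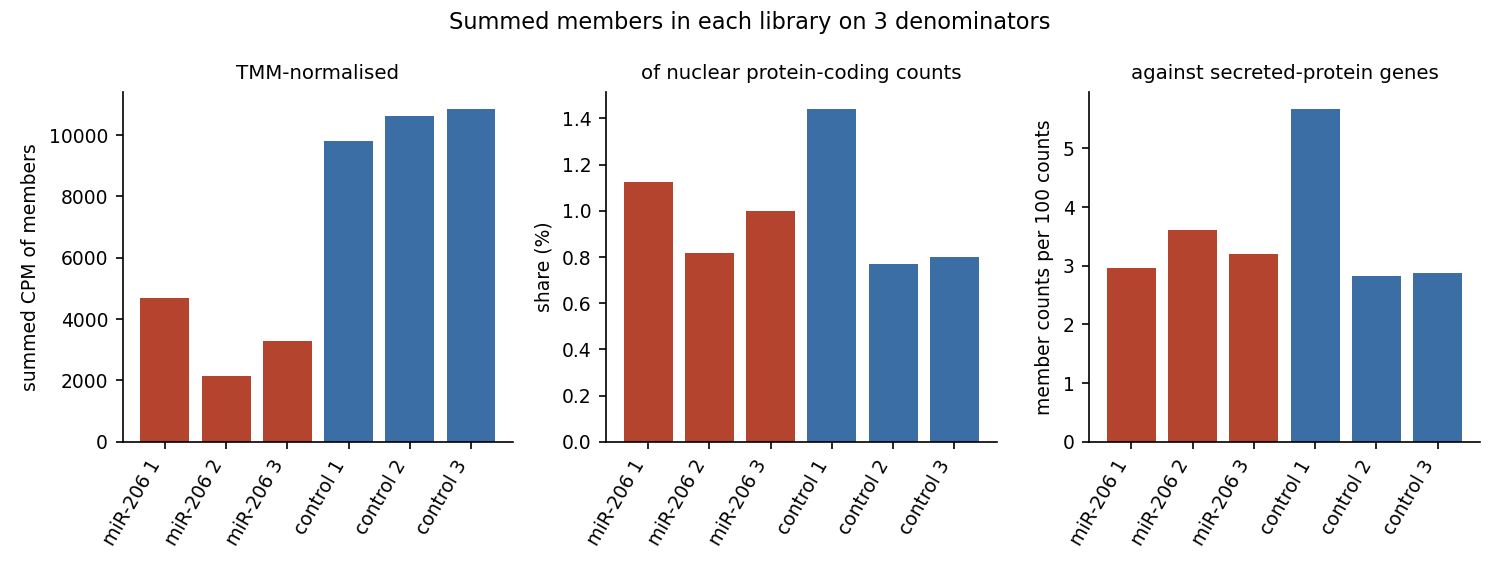
Summed level of the 45 genes in each of the 6 libraries (x axis) as TMM-normalised CPM, as a share of nuclear protein-coding counts in percent, and as counts per 100 counts of secreted plasma protein genes. The miR-206 libraries are lowest on the CPM scale, with 2135 to 4702 CPM against 9811 to 10861 CPM in the controls, and overlap with the controls on the other scales.

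Sequences were read next, first at the promoters and then at the 3′ ends. Promoters were searched for the ER stress response element, through which ATF6 with the factor NF-Y raises chaperone genes, because these genes are known to be raised together by it. The element was written as CCAAT, 9 bases of any kind and CCACG, and searched on both strands of the 300 bases from 250 before to 50 after each start in RefSeq promoters of build GRCm38.p6. It was found in 7 of the 37 genes with a promoter there (18.9%), against 37 of 27025 genes (0.137%). The element was chosen as one known for these genes, so the larger share follows from the choice and is not a test. Shown are the matches with 12 bases on each side, 5′ to 3′ on the strand of the gene, with the match in capitals. In Calr and in the first match of Hsp90b1 it lies on the opposite strand and so reads from CGTGG to ATTGG.
Hspa5, chr2:34772025-34772043, plus strand: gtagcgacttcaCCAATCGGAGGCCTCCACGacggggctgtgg
Hsp90b1, chr10:86705533-86705551, minus strand: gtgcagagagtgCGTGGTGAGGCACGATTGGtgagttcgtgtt
Hsp90b1, chr10:86705638-86705656, minus strand: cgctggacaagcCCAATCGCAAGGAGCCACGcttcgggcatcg
Calr, chr8:84847075-84847093, minus strand: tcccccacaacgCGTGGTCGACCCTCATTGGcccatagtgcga
Canx, chr11:50325800-50325818, minus strand: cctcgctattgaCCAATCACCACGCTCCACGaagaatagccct
Pdia6, chr12:17266491-17266509, plus strand: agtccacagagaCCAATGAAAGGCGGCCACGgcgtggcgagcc
Dnajc3, chr14:118937827-118937845, plus strand: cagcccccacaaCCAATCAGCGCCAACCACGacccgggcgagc
Syvn1, chr19:6046532-6046550, plus strand: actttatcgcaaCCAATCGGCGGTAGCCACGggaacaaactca
The second form of the element, ATTGG, 1 base of any kind and CCACG, was found in 2 of the 37 genes (5.41%), against 12 of 27025 (0.0444%).
Herpud1, chr8:94386377-94386387, plus strand: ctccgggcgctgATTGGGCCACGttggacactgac
Dnajb11, chr16:22857852-22857862, plus strand: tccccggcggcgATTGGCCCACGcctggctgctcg
The 250 bases before the start of Hspa5, chr2:34771840-34772089, are given for the setting of the element, in capitals.
Hspa5 promoter: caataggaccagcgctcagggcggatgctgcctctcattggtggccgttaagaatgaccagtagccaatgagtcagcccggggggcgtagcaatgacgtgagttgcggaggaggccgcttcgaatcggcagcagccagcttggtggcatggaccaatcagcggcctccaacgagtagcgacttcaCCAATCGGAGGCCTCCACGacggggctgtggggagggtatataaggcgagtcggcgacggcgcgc
The genes that hold a match were spread over nearly the whole range of fold changes: Herpud1 was at -4.68, Dnajc3 at -2.68, Syvn1 at -2.51, Hspa5 at -1.38, Canx at -1.37, Hsp90b1 at -1.32, Pdia6 at -0.98 and Calr at -0.94, and Dnajb11 was at -1.89. A match of letters is a description and not a bound site.

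Sites for miR-206 were searched in 3′ UTRs, taking the longest that is annotated for a gene, since the microRNA was the agent introduced. The mature sequence, at chr1:20679055-20679076 on the plus strand, has its seed (bases 2 to 8) in capitals.
mmu-miR-206-3p: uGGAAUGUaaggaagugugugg
A match to the seed was present in 5 of the 45 genes (11.1%), against 1835 of 16773 tested genes (10.9%). The matches follow with their flanks, in capitals, on the strand of the gene.
Sec62: gtgtgccaACATTCCAtgtatt
Sec63: attctcacACATTCCAcataat
Ssr1: gttgatacACATTCCAcgcgag
Hsp90b1: tttttttaACATTCCtcctgaa
Dnajc3, first: ctcctgagACATTCCcgtccct
Dnajc3, second: ccacttccACATTCCAatttct
Those of Sec62, Sec63 and Ssr1 and the second of Dnajc3 continue into an A opposite the first base of the microRNA. All 5 genes fell as deposited, at -4.08, -2.37, -1.40, -1.32 and -2.68 for Sec62, Sec63, Ssr1, Hsp90b1 and Dnajc3. Of the 44 tested genes of the machinery, with or without a match, 36 fell and 0 had a fold change above 0. After correction Sec62 fell, Ssr1 rose, and Sec63, Hsp90b1 and Dnajc3 did not pass. Srp72, Spcs1 and Herpud1, which also fell after correction, had no match in these windows.

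The signal recognition particle, the cytosolic ribonucleoprotein that brings ribosomes to the ER, had only lower values. All 5 of its tested proteins fell, with a median of -2.91. Srp72, which forms a dimer with Srp68 on the particle's RNA, had 8.52, 10.5 and 10.5 CPM in the miR-206 libraries, against 48.8, 108 and 99.6 CPM in the controls. The groups do not overlap, and control 1 was lowest among the controls (log2 fold change -3.12 ± 0.42 (SE), adjusted p = 0.000406). Srp9, which with Srp14 makes the part of the particle that slows elongation, had 12.3, 11 and 13.9 CPM in the miR-206 libraries, against 41.2, 126 and 112 CPM in the controls (log2 fold change -2.91 ± 0.48 (SE), adjusted p = 0.000915). Srp14 had 5.26, 11.4 and 9.73 CPM in the miR-206 libraries, against 47.4, 81.4 and 86.3 CPM in the controls (log2 fold change -3.03 ± 0.43 (SE), adjusted p = 0.000488). Neither gene overlapped between the groups, and the controls were uneven, with control 1 at the lowest value for both. Srp68 had 6.89, 4.87 and 7.26 CPM in the miR-206 libraries, against 35.0, 43.3 and 43.2 CPM in the controls, without overlap (log2 fold change -2.67 ± 0.32 (SE), adjusted p = 0.00032). Srp19, which helps assemble the particle, had a fold change of -2.71 ± 0.44 (adjusted p = 0.000888). After correction the 5 values ran from -1.08 to -0.46, and Srp72 alone passed, at -1.08 ± 0.26 (adjusted p = 0.0139). Srp19 was at 1.79 to 2.37 times the expected background in the miR-206 libraries, Srp68 at 2.74 to 3.91 times and Srp72 at 2.24 to 2.81 times, which limits their corrected values. Srp54a, the subunit that binds the signal sequence, had 1, 4 and 2 counts in the miR-206 libraries and 4, 2 and 6 counts in the controls and was not tested. Its near-identical copies lie beside it on chromosome 12, and reads shared among them may have been lost or split in counting.

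Transcripts of the channel fell too, with more negative fitted values for its small subunits than for its pore. All 9 translocon and TRAP genes fell, with a median of -2.68. Sec61a1, the pore-forming subunit, had 54.3, 38 and 49.7 CPM in the miR-206 libraries, against 149, 212 and 213 CPM in the controls (log2 fold change -2.01 ± 0.42 (SE), adjusted p = 0.00286). Sec61b had 7.14, 13.2 and 5.45 CPM in the miR-206 libraries, against 52.4, 130.4 and 121 CPM in the controls (log2 fold change -3.57 ± 0.52 (SE), adjusted p = 0.000538), and Sec61g had 15.2, 11 and 8.17 CPM in the miR-206 libraries, against 53.0, 103 and 113 CPM in the controls (log2 fold change -2.97 ± 0.45 (SE), adjusted p = 0.000603). These are the small tail-anchored partners of the pore, and neither overlapped between the groups. Sec62, which serves post-translational import and the clearance of excess ER, had 11.7, 5.95 and 9.73 CPM in the miR-206 libraries, against 65.1, 199.6 and 202 CPM in the controls. The groups are far apart, and control 1 was lowest of the controls (log2 fold change -4.08 ± 0.57 (SE), adjusted p = 0.000439). Its partner Sec63, which recruits BiP to the channel, had 13, 18.9 and 17.6 CPM in the miR-206 libraries, against 42.7, 103 and 110.2 CPM in the controls (log2 fold change -2.37 ± 0.45 (SE), adjusted p = 0.00187). After correction Sec62 remained lower at -1.85 ± 0.37 (adjusted p = 0.0071), Sec61b was at -0.98 ± 0.37 (adjusted p = 0.0678), Sec63 at -0.20 ± 0.30 (adjusted p = 0.614) and Sec61a1 at 0.48 ± 0.28 (adjusted p = 0.195). Sec62 was at 2.11 to 4.03 times background in the miR-206 libraries, against 38.8 to 339 times in the controls.

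The TRAP complex, 4 membrane proteins beside the channel that help some chains enter, spread over a range of its own. Ssr1 had 62.7, 33.3 and 54.1 CPM in the miR-206 libraries, against 96.7, 153 and 146 CPM in the controls, without overlap (log2 fold change -1.40 ± 0.42 (SE), adjusted p = 0.0179). Ssr4 had 47.1, 20.4 and 35.7 CPM in the miR-206 libraries, against 118, 271 and 271 CPM in the controls (log2 fold change -2.68 ± 0.52 (SE), adjusted p = 0.00222). Ssr4 is the delta subunit, and Ssr1, the alpha subunit, fell least of the 4 by fitted value. The fall of Ssr1 passed in 3 of the 6 fits without 1 library and under 3 of 6 other scalings. Ssr2, the beta subunit, had 42.4, 16.6 and 29.7 CPM in the miR-206 libraries, against 89.5, 123 and 123 CPM in the controls, again without overlap (log2 fold change -1.92 ± 0.44 (SE), adjusted p = 0.00508). Ssr3 had a fold change of -2.78 ± 0.48 (adjusted p = 0.00122). After correction Ssr1 rose, at 1.06 ± 0.31 (adjusted p = 0.0295), while Ssr2, Ssr3 and Ssr4 did not pass at 0.63, -0.26 and -0.04. The rise of Ssr1 passed in 2 of the 6 corrected fits without 1 library, and scaled on the secreted plasma protein genes its corrected value was -0.08.

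Signal peptidase, which cuts the signal sequence off, had 3 subunits with widely different values. Spcs1, a small accessory subunit, had 15.4, 7.57 and 12.1 CPM in the miR-206 libraries, against 80.2, 198 and 175 CPM in the controls. The groups are far apart, and control 1 lay below the other controls (log2 fold change -3.69 ± 0.51 (SE), adjusted p = 0.000447). Spcs2 had 31.6, 18.9 and 19.5 CPM in the miR-206 libraries, against 141, 158 and 171 CPM in the controls (log2 fold change -2.75 ± 0.42 (SE), adjusted p = 0.000621). Spcs3, which is needed for the activity of the enzyme, had 26.9, 13.7 and 20.2 CPM in the miR-206 libraries, against 28.1, 54.0 and 66.1 CPM in the controls; control 1 lay just above the highest miR-206 library (log2 fold change -1.28 ± 0.41 (SE), adjusted p = 0.0244). All 3 fell as deposited, though the fall of Spcs3 passed in 3 of the 6 fits without 1 library and under 3 of 6 other scalings. After correction Spcs1 fell, at -1.09 ± 0.29 (adjusted p = 0.0198), Spcs3 rose, at 1.29 ± 0.29 (adjusted p = 0.0112), and Spcs2 was at -0.35 ± 0.34 (adjusted p = 0.426). The fall of Spcs1 passed in 3 of the 6 corrected fits without 1 library, and the rise of Spcs3 in all 6. The rise did not pass with library size alone, at 0.72, or scaled on the secreted plasma protein genes, at 0.15.

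Within oligosaccharyltransferase, Rpn1, Stt3a and Rpn2 had the fold changes nearest 0 and Dad1 the most negative. Of its 7 genes 5 fell as deposited. Rpn2, the gene of ribophorin II and the highest in mean CPM of the group, had 152, 62.0 and 100.4 CPM in the miR-206 libraries, against 169, 281 and 289.7 CPM in the controls. The groups do not overlap, but miR-206 library 1 came close to control 1 and the difference did not pass (log2 fold change -1.24 ± 0.49 (SE), adjusted p = 0.0505). Rpn1, the gene of ribophorin I, which presents chains to the catalytic subunit, had 131, 63.6 and 87.9 CPM in the miR-206 libraries, against 179, 187 and 202 CPM in the controls and did not pass either (log2 fold change -1.002 ± 0.43 (SE), adjusted p = 0.0685). Ddost, another subunit with a large luminal part, had 114, 36.9 and 64.1 CPM in the miR-206 libraries, against 167, 193 and 212 CPM in the controls (log2 fold change -1.41 ± 0.49 (SE), adjusted p = 0.0317). Stt3a and Stt3b are the alternative catalytic subunits, the first working at the channel while the chain enters and the second afterwards. Stt3a had 62.5, 36.4 and 47.5 CPM in the miR-206 libraries, against 122, 106 and 97.2 CPM in the controls (log2 fold change -1.15 ± 0.39 (SE), adjusted p = 0.0279). Stt3b had 15.9, 11.9 and 11.9 CPM in the miR-206 libraries, against 49.5, 64.6 and 70.8 CPM in the controls (log2 fold change -2.21 ± 0.35 (SE), adjusted p = 0.000686). Both fell, Stt3b by the larger fitted amount, and the difference between the 2 was not tested. The falls of Stt3a and Ddost each passed in 2 of the 6 fits without 1 library and under 3 of 6 other scalings, and that of Stt3b in all 6 fits and under 5 scalings. Dad1, a small subunit named as a defender against cell death, had 32.3, 16.6 and 25.7 CPM in the miR-206 libraries, against 121, 236 and 238 CPM in the controls (log2 fold change -2.99 ± 0.49 (SE), adjusted p = 0.000848). Ostc, which links the enzyme to the channel, had a fold change of -2.57 ± 0.47 (adjusted p = 0.00152). After correction Rpn1 and Rpn2 rose, at 1.51 ± 0.39 (adjusted p = 0.0184) and 1.38 ± 0.36 (adjusted p = 0.0177), while Stt3a, Stt3b, Dad1, Ddost and Ostc did not pass, at 1.18, 0.09, -0.45, 1.13 and -0.13. The rises of Rpn1 and Rpn2 each passed in 3 of the 6 corrected fits without 1 library. Scaled on the secreted plasma protein genes they did not pass, at 0.38 and 0.22, and with library size alone Rpn1 did not pass either, at 0.94.

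The disulfide isomerases had fold changes near -1, and 0 of the 4 passed the test as deposited. P4hb, the gene of protein disulfide isomerase, had the highest level of the 45 genes per exonic kb, at 345 CPM per kb over all 6 libraries. It had 855, 366 and 581 CPM in the miR-206 libraries, against 1461, 1279 and 1380.0 CPM in the controls, with means of 601 ± 245 CPM in the miR-206 libraries and 1373 ± 90.9 CPM in the controls (SD, n = 3 each). The groups do not overlap, and the miR-206 libraries spread more than the controls (log2 fold change -1.19 ± 0.52 (SE), adjusted p = 0.0704). Pdia3, which works with calnexin and calreticulin on glycoproteins, had 391, 153 and 252 CPM in the miR-206 libraries, against 604, 461 and 532 CPM in the controls (log2 fold change -1.005 ± 0.50 (SE), adjusted p = 0.106). Pdia6 had 250.3, 103 and 175 CPM in the miR-206 libraries, against 445, 280.1 and 319 CPM in the controls (log2 fold change -0.98 ± 0.49 (SE), adjusted p = 0.108). Both kept the groups apart, with control 2 lowest among the controls. Pdia4 had 219, 86.0 and 150.2 CPM in the miR-206 libraries, against 427, 196 and 238 CPM in the controls, and was the one tested gene of the pathway whose groups overlap, miR-206 library 1 lying above control 2 (log2 fold change -0.92 ± 0.52 (SE), adjusted p = 0.148). After correction Pdia3 rose, at 1.45 ± 0.50 (adjusted p = 0.0492), and Pdia4, Pdia6 and P4hb did not pass, at 1.41, 1.42 and 1.30, with adjusted p of 0.103, 0.067 and 0.0568. The rise of Pdia3 passed in 2 of the 6 corrected fits without 1 library, and did not pass with library size alone, at 0.86, or scaled on the secreted plasma protein genes, at 0.28.

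The lectin folding cycle, in which a glycoprotein is bound, released and tested for folding, had 2 of its 3 genes lower, with a median log2 fold change of -0.97. Canx, the gene of the membrane-bound lectin calnexin, had 255, 114 and 179 CPM in the miR-206 libraries, against 321, 572 and 519.9 CPM in the controls (log2 fold change -1.37 ± 0.50 (SE), adjusted p = 0.0392). Calr, the gene of its soluble counterpart calreticulin, had 299, 136 and 212 CPM in the miR-206 libraries, against 418, 406 and 414 CPM in the controls. The 3 controls of Calr lay close together and above every miR-206 library, yet the difference did not pass (log2 fold change -0.94 ± 0.47 (SE), adjusted p = 0.109). Uggt1, which senses misfolded glycoproteins and sends them back for another round, had 48.9, 41.1 and 53.8 CPM in the miR-206 libraries, against 73.4, 104 and 105 CPM in the controls (log2 fold change -0.97 ± 0.37 (SE), adjusted p = 0.0442). Canx and Uggt1 fell as deposited, but without 1 library the fall of Canx passed in 2 of 6 fits and that of Uggt1 in 1 of 6, and each passed under 3 of 6 other scalings. After correction all 3 genes rose: Calr at 1.57 ± 0.44 (adjusted p = 0.0235), Canx at 1.27 ± 0.35 (adjusted p = 0.0225) and Uggt1 at 1.43 ± 0.27 (adjusted p = 0.00577). Uggt1 was at 4.92 to 6.17 times background in the miR-206 libraries, and Calr at 72.5 to 156 times. With library size alone none of the 3 passed in the corrected fit, at 1.00, 0.70 and 0.93 for Calr, Canx and Uggt1, and scaled on the secreted plasma protein genes none did, at 0.43, 0.13 and 0.40. In the corrected fits without 1 library the rise of Calr passed in 2 of 6, that of Canx in 3 of 6 and that of Uggt1 in all 6.

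**Figure D3:**
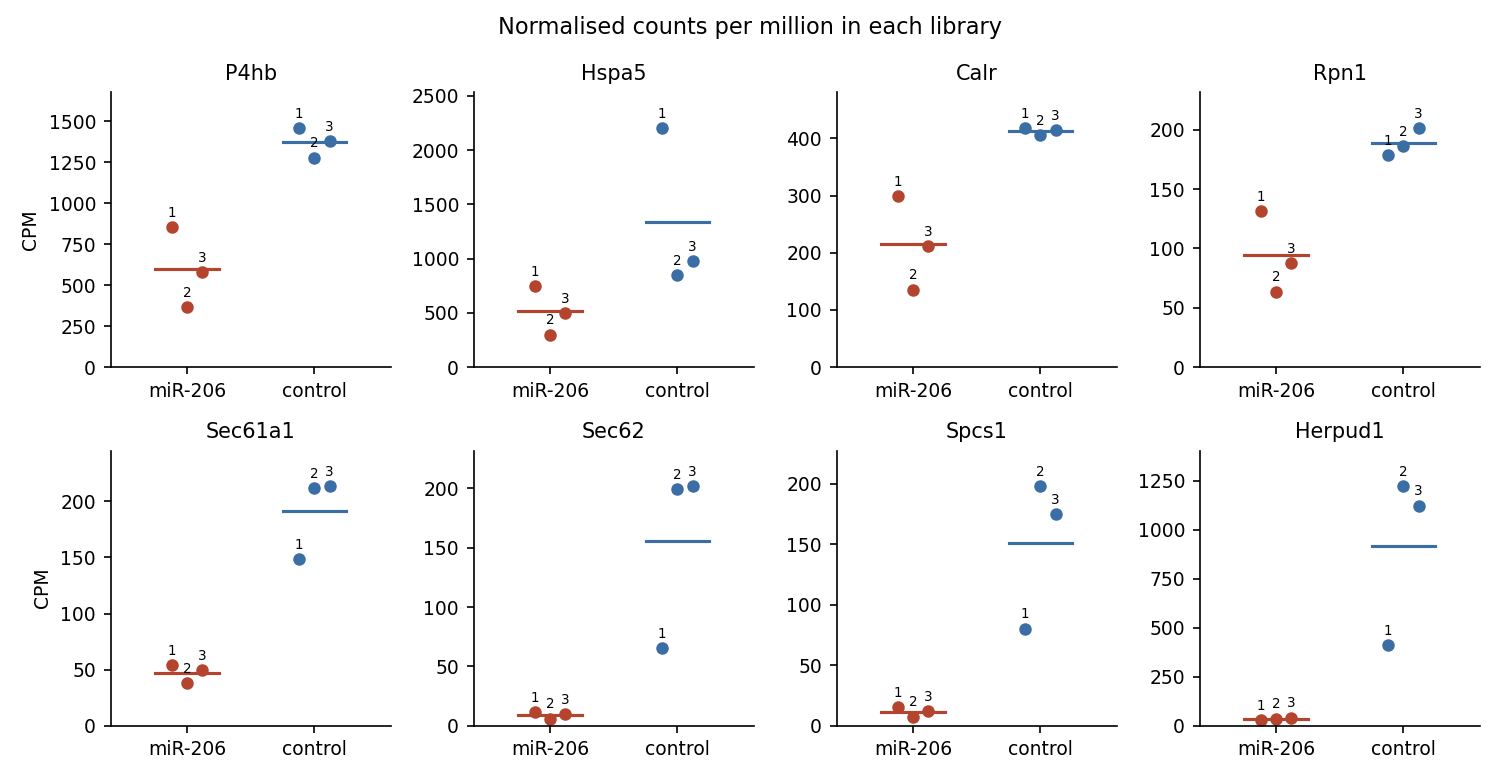
Normalised CPM (y axis, from 0) of 8 genes in the 3 miR-206 (red) and 3 control (blue) libraries, numbered by replicate, with lines for group means. Sec62, Spcs1 and Herpud1 sit near the floor of their panels in all miR-206 libraries, while P4hb, Calr and Rpn1 are lower than the controls by smaller steps.

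Among the chaperones, 6 of 7 genes fell as deposited, with a median of -1.89. Hspa5, the gene of BiP, had 748, 301 and 499 CPM in the miR-206 libraries, against 2204, 844 and 975 CPM in the controls, with means of 516 ± 224 CPM in the miR-206 libraries and 1341 ± 750.0 CPM in the controls (SD, n = 3 each). Control 1 was far above the other controls, and the difference did not pass (log2 fold change -1.38 ± 0.59 (SE), adjusted p = 0.0685). Hsp90b1, the gene of GRP94, had 396, 157 and 277 CPM in the miR-206 libraries, against 712, 678 and 681 CPM in the controls and was even among controls (log2 fold change -1.32 ± 0.50 (SE), adjusted p = 0.0449). Hyou1, which exchanges nucleotide on BiP, had 24.7, 18.4 and 16.9 CPM in the miR-206 libraries, against 82.7, 34.2 and 46.9 CPM in the controls, again highest in control 1 (log2 fold change -1.45 ± 0.40 (SE), adjusted p = 0.0129). Dnajc3, a co-chaperone of BiP also known as an inhibitor of the kinase PERK, had 34.2, 22.9 and 26.5 CPM in the miR-206 libraries, against 66.4, 222 and 247 CPM in the controls (log2 fold change -2.68 ± 0.55 (SE), adjusted p = 0.00278). Sdf2l1, a partner of the BiP cycle, had 11.5, 3.78 and 6.48 CPM in the miR-206 libraries, against 31.3, 33.5 and 35.9 CPM in the controls (log2 fold change -2.19 ± 0.40 (SE), adjusted p = 0.00161). Dnajc3 was lowest of the controls in control 1, whereas Sdf2l1 was even across them. The falls of Hsp90b1 and Hyou1 passed in 2 and 5 of the 6 fits without 1 library, and each under 3 of 6 other scalings. Dnajb9 and Dnajb11 are J-domain partners of BiP. Dnajb9 had 22.4, 7.21 and 18.2 CPM in the miR-206 libraries, against 53.0, 83.5 and 73.3 CPM in the controls (log2 fold change -2.13 ± 0.46 (SE), adjusted p = 0.00356). Dnajb11 had 36.1, 16.4 and 18.8 CPM in the miR-206 libraries, against 68.7, 101 and 95.4 CPM in the controls (log2 fold change -1.89 ± 0.42 (SE), adjusted p = 0.00447). Neither overlapped between the groups. After correction none of the 7 passed: the values ran from -0.05 for Dnajc3 to 1.18 for Hsp90b1, with Hspa5 at 0.90 ± 0.68 (adjusted p = 0.311).

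ER-associated degradation held the gene with the most negative fold change of the pathway. All 6 of its genes fell, with a median of -2.54. Herpud1, a membrane protein that gathers the degradation complex and is a target of the unfolded protein response, had 30.1, 36.4 and 40.9 CPM in the miR-206 libraries, against 411, 1220.5 and 1122 CPM in the controls. The miR-206 libraries were even, and control 1 was far below the other controls (log2 fold change -4.68 ± 0.62 (SE), adjusted p = 0.000371). Sel1l, the scaffold of the complex, had 76.3, 42.7 and 48.8 CPM in the miR-206 libraries, against 175, 204 and 193 CPM in the controls (log2 fold change -1.77 ± 0.42 (SE), adjusted p = 0.00606). Syvn1, the ubiquitin ligase of the complex, had 9.65, 4.69 and 6.61 CPM in the miR-206 libraries, against 47.6, 35.4 and 37.2 CPM in the controls (log2 fold change -2.51 ± 0.36 (SE), adjusted p = 0.000493). Neither overlapped between the groups. Derl1 and Derl2, of the channel that returns chains to the cytosol, had fold changes of -2.89 ± 0.55 (adjusted p = 0.00197) and -2.56 ± 0.45 (adjusted p = 0.00127), and both fell. Edem1, which helps commit misfolded glycoproteins to degradation, had 21.1, 11.7 and 13.7 CPM in the miR-206 libraries, against 30.6, 99.6 and 94.2 CPM in the controls, with control 1 nearest to the miR-206 libraries (log2 fold change -2.27 ± 0.50 (SE), adjusted p = 0.00399). After correction Herpud1 alone passed, at -1.96 ± 0.31 (adjusted p = 0.0037), and it was still at 19.4 to 25.8 times background in the miR-206 libraries, against 456 to 3650.0 times in the controls. Sel1l was at 0.65 ± 0.36 (adjusted p = 0.174) and Syvn1, at 1.48 to 2.99 times background in the miR-206 libraries, at -0.91 ± 0.58 (adjusted p = 0.238).

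The makeup of the pathway within each library does not depend on scaling between libraries. Disulfide isomerases held 36.5, 33.2 and 35.2% in the miR-206 libraries, against 29.9, 20.9 and 22.7% in the controls, as shares of the counts of the 45 genes. The lectin cycle held 12.8, 13.6 and 13.5% in the miR-206 libraries, against 8.29, 10.2 and 9.56% in the controls. Both were higher in every miR-206 library than in any control. Genes of ER-associated degradation held 3.99, 5.53 and 4.34% in the miR-206 libraries, against 8.06, 17.5 and 15.9% in the controls, and signal peptidase 1.57, 1.88 and 1.57% in the miR-206 libraries, against 2.54, 3.86 and 3.79% in the controls. Both were lower in every miR-206 library. In every control most of the share of ER-associated degradation was Herpud1, with 0.640, 1.71 and 1.24% in the miR-206 libraries, against 4.19, 11.5 and 10.3% in the controls. The signal recognition particle held 0.818, 2.06 and 1.4% in the miR-206 libraries, against 1.91, 3.78 and 3.54% in the controls. The translocon and TRAP held 6.10, 8.09 and 7.17% in the miR-206 libraries, against 7.87, 14.2 and 13.8% in the controls. These groups overlap for both roles, and after background subtraction they did not, at 0.565% to 1.55% in the miR-206 libraries against 1.85% to 3.77% in the controls for the particle and 5.65% to 7.21% in the miR-206 libraries against 7.76% to 14.1% in the controls for the channel. The chaperones held 24.7% to 27.1% in the miR-206 libraries and 18.8% to 32.8% in the controls, and oligosaccharyltransferase 10.5% to 11.1% in the miR-206 libraries and 8.61% to 10.8% in the controls, with the groups overlapping for both. No test was made of a share.

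**Figure D4:**
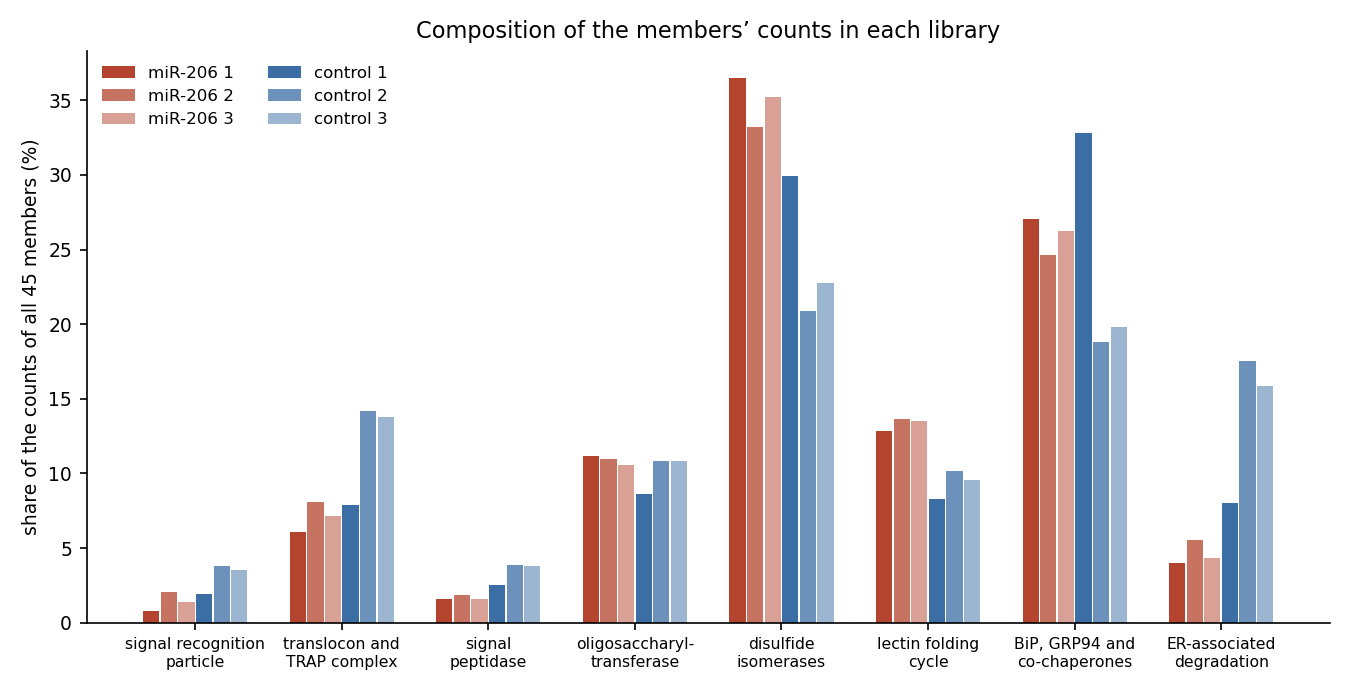
Share of the counts of the 45 genes (y axis, percent) held by each of 8 roles (x axis) in each of the 3 miR-206 (red) and 3 control (blue) libraries. Disulfide isomerases hold 33.2% to 36.5% in the miR-206 libraries against 20.9% to 29.9% in the controls, and ER-associated degradation 3.99% to 5.53% in the miR-206 libraries against 8.06% to 17.5% in the controls.

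The same genes can be sorted by how their own proteins meet the ER membrane, a classing drawn up after the fold changes were known and given without a test. The 21 genes whose products carry a signal sequence that is cleaved, such as P4hb, Hspa5, Rpn1 and Canx, had a median log2 fold change of -1.38. The 14 genes whose products span the membrane and keep their signal, such as Sec62, Spcs1, Derl1 and Herpud1, had a median of -2.66. The 5 tested cytosolic genes had -2.91, and Sec61b and Sec61g, both tail-anchored, had a median of -3.27. Syvn1 and Edem1 were not classed. After correction the medians were 1.13, -0.28, -0.61 and -0.73 in the same order, and 19 of the 21 genes with a cleaved signal were above 0, against 4 of the 14, 0 of the 5 and 0 of the 2. As shares of the counts of the 45 genes, those with a cleaved signal held 89.7, 84.4 and 87.8% in the miR-206 libraries, against 81.2, 63.1 and 65.4% in the controls. Every miR-206 library was above every control, and control 1 was nearest to them. The classes also differ in level: over all 6 libraries the median was 39.6 CPM per exonic kb with a cleaved signal and 18.3 CPM per exonic kb with the signal kept, and the part of the level in the difference was not tested.

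**Figure D5:**
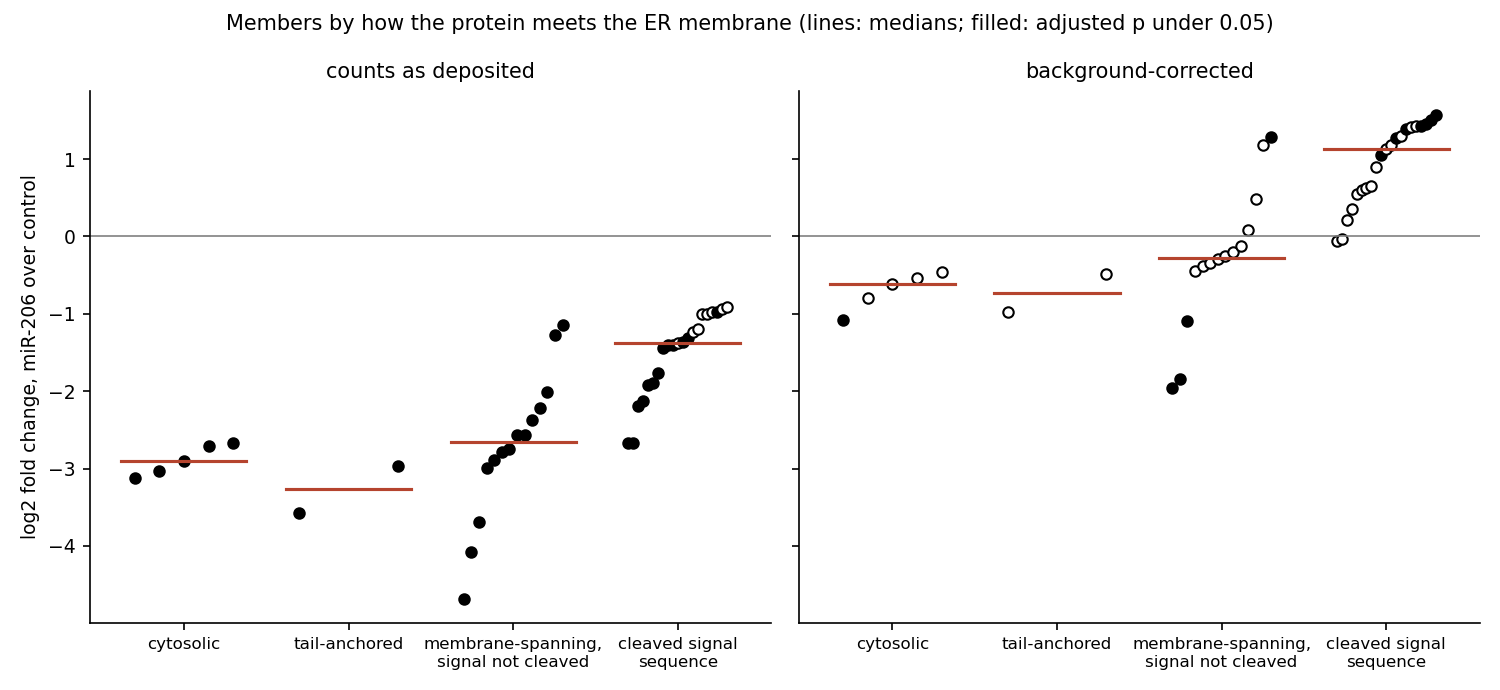
Log2 fold changes (miR-206 over control, y axis) of the tested genes in 4 classes of membrane contact (x axis), for counts as deposited (left) and background-corrected (right), with red lines for medians and filled points for adjusted p under 0.05. Genes with a cleaved signal sequence lie highest in both panels, with medians of -1.38 and 1.13.

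Other genes of the pathway, from 6 lists on targeting, glycan trimming, folding, degradation, the unfolded protein response and transport to the Golgi, were lower as deposited too. Of these 110 tested genes 92 fell and 0 rose, with a median of -2.11, and after correction 16 of 94 rose and 11 fell, with a median of 0.13. Over all genes tested 29.6% fell and 25.8% rose as deposited. In the corrected fit 20.7% of all genes fell and 18.5% rose, and the counts of all 6 lists stand beside these shares. The list on N-glycan assembly and trimming had 17 of 22 genes lower and that on folding and redox 18 of 20. The corrected fit held 17 genes of each. Of these 6 rose and 1 fell in the first list, with a median of 0.39, and 5 rose and 0 fell in the second, with a median of 0.62. Transport to the Golgi had 19 of 20 lower, targeting 12 of 14 and degradation 15 of 19. Ost4, a small subunit of oligosaccharyltransferase, had 5.51, 3.78 and 6.87 CPM in the miR-206 libraries, against 59.8, 108 and 83.0 CPM in the controls (log2 fold change -3.94 ± 0.43 (SE), adjusted p = 0.000281). Manf, a secreted partner of BiP, had 19.2, 12.6 and 14.5 CPM in the miR-206 libraries, against 88.6, 79.4 and 72.3 CPM in the controls (log2 fold change -2.37 ± 0.36 (SE), adjusted p = 0.000612). Kdelr1, which returns escaped chaperones from the Golgi, had 4.64, 3.06 and 5.58 CPM in the miR-206 libraries, against 29.7, 55.4 and 48.4 CPM in the controls (log2 fold change -3.31 ± 0.39 (SE), adjusted p = 0.0003). Each of these genes kept the groups apart. After correction Ost4 fell at -1.54 ± 0.32 (adjusted p = 0.0088) and Kdelr1 at -1.11 ± 0.37 (adjusted p = 0.0433). Manf did not pass, at -0.10 ± 0.40 (adjusted p = 0.848). Ost4 had 44, 21 and 53 counts in the miR-206 libraries and Kdelr1 had 37, 17 and 43 counts. These low counts limit both corrected values, and a gene could enter that fit through the controls alone. Bag6, which handles tail-anchored proteins, had 3.88, 4.14 and 3.89 CPM in the miR-206 libraries, against 17.3, 29.5 and 30.3 CPM in the controls (log2 fold change -2.69 ± 0.34 (SE), adjusted p = 0.000332). Fam8a1, of the degradation complex, had 1.63, 1.80 and 1.69 CPM in the miR-206 libraries, against 15.6, 45.8 and 51.7 CPM in the controls (log2 fold change -4.46 ± 0.50 (SE), adjusted p = 0.000281). Both fell as deposited, without overlap. Their miR-206 counts lay near the background, so no corrected value is given, though both are among the 11 that fell.

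Regulators of the unfolded protein response were lower as well, with 11 of 15 falling and a corrected median of -0.86, the lowest of the 6 lists. Atf4, a transcription factor of the integrated stress response, had 3.13, 4.14 and 4.93 CPM in the miR-206 libraries, against 26.2, 56.3 and 54.7 CPM in the controls (log2 fold change -3.49 ± 0.41 (SE), adjusted p = 0.000304). The following 3 were picked after their values were seen. Xbp1, the factor activated by IRE1, had 25.9, 24.5 and 17.0 CPM in the miR-206 libraries, against 36.9, 116 and 154 CPM in the controls (log2 fold change -2.19 ± 0.53 (SE), adjusted p = 0.00652). Creb3l3, a liver factor that resides in the ER membrane, had 24.2, 22.2 and 20.0 CPM in the miR-206 libraries, against 96.1, 517 and 496 CPM in the controls (log2 fold change -4.06 ± 0.67 (SE), adjusted p = 0.000949). Control 1 was lowest of the controls for all of these, and the groups do not overlap. Ern1, the gene of IRE1 itself, had 15.9, 15.0 and 19.1 CPM in the miR-206 libraries, against 12.3, 29.6 and 28.0 CPM in the controls, with control 1 below every miR-206 library, and did not pass (log2 fold change -0.49 ± 0.37 (SE), adjusted p = 0.267). After correction Atf4 and Creb3l3 fell, at -1.43 ± 0.39 (adjusted p = 0.0206) and -1.34 ± 0.38 (adjusted p = 0.0253). Atf4 had 25, 23 and 38 counts in the miR-206 libraries, which limits its corrected value. Xbp1 did not pass, at 0.49 ± 0.32 (adjusted p = 0.251), and Ern1 rose, at 1.85 ± 0.29 (adjusted p = 0.0037). The rise of Ern1 was the 1 rise, beside 4 falls, among the 12 regulators in the corrected fit. Its value under other scalings of that fit, on which rises of the machinery depended, is not given here.

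Hepatocyte markers were present in all libraries, with a summed level of 15228 to 43074 CPM in the miR-206 libraries, against 66754 to 176614 CPM in the controls, and 13 of 15 fell. Sums of markers of other liver cells differed with the group. The counts of falls and rises given with them stand beside 29.6% that fell and 25.8% that rose over all genes tested. Kupffer cell markers, 13 of 13 of which fell, summed to 78.1 to 101 CPM in the miR-206 libraries, against 1018 to 2601 CPM in the controls. Sinusoidal endothelial markers, 12 of 12 of which fell, summed to 132 to 146 CPM in the miR-206 libraries, against 621 to 697 CPM in the controls. Every sum was lower in the miR-206 libraries. Cholangiocyte markers, with 6 of 8 falling, summed to 47.6 to 113 CPM in the miR-206 libraries, against 888 to 3174 CPM in the controls, highest in control 1. The largest part of that sum in every library was Spp1. It had 72.9, 20.5 and 51.1 CPM in the miR-206 libraries, against 2758, 768 and 930 CPM in the controls. Epcam and Cftr did not pass, with log2 fold changes of -0.77 and 1.11. Stellate cell markers, with 6 of 11 falling, summed to 129.8 to 148 CPM in the miR-206 libraries, against 274 to 731 CPM in the controls. Plasma and B cells, whose secretory load is high, had 7 of 13 markers lower and 3 higher, and their sum was 74.2 to 114 CPM in the miR-206 libraries, against 807 to 1028 CPM in the controls. That sum hides unlike markers. Sdc1, its largest part in the miR-206 libraries, had 70.9, 31.7 and 48.0 CPM there, against 119, 228 and 238 CPM in the controls. Igkc had 0.125, 1.80 and 1.56 CPM in the miR-206 libraries, against 287, 328 and 338 CPM in the controls. T and NK cell markers, with 2 of 9 lower and 1 higher, summed to 33.1 to 34.7 CPM in the miR-206 libraries, against 37.8 to 56.9 CPM in the controls. Derl3 had 0 counts in miR-206 library 3, Cldn4 and Gzma 0 in miR-206 libraries 2 and 3, and Nkg7 0 in miR-206 libraries 1 and 3, where 3 counts, or 0.376 to 0.541 CPM, is the upper limit. After correction the counts changed, and of all genes in that fit 18.5% rose and 20.7% fell. Of 15 hepatocyte markers 2 rose and 6 fell (median 0.13), and of 13 Kupffer markers 0 rose and 10 fell (median -2.26). Of 12 endothelial markers 3 rose and 6 fell (median -1.01). Of the lists with fewer markers above the background minimum, 2 of 4 stellate, 2 of 5 cholangiocyte, 1 of 3 plasma and B cell and 1 of 1 T and NK cell markers fell and 0 rose. That minimum was an average over all 6 libraries, so markers of every list could enter the corrected fit through the controls alone. These corrected counts are therefore descriptions and not a test of cell content. The T and NK cell marker was Nkg7, with 0, 1 and 0 counts in the miR-206 libraries, against 71, 131 and 103 counts in the controls. The part of these cells, of the background and of the mitochondrial share in the lower machinery values was not tested.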

How the data were processed

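Libraries were made with a SMARTER mRNA-Seq kit from total RNA isolated with an RNeasy Micro kit, per the labels' protocols. The authors deposited raw counts per Ensembl gene, whole numbers with no normalisation. Builds GRCm 38 and mm 10 are named in the submitters' processing notes. How reads were aligned and counted, and whether by strand, is not given in the sources used here, which leaves counts of overlapping, antisense and near-identical genes uncertain. Of 49315 genes 49056 matched GENCODE M21 by identifier.

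Genes passing filterByExpr (minimum count 10) were scaled by TMM and tested with edgeR 4.0.16 (quasi-likelihood, robust, group as the single term, R 4.3.3, limma 3.58.1), two-sided, with Benjamini-Hochberg adjustment over all genes tested and a threshold of 0.05. Positive fold changes mean higher in the miR-206 libraries. For background correction, counts per exonic kb of 1431 protein-coding olfactory and vomeronasal receptor genes (5264 kb), times exonic length, were subtracted; nuclear protein-coding genes at 10 or more times background on average (6647) were kept, scaled and tested again, on values rounded to whole counts. The average ran over all libraries of both groups, so a gene could be kept through the controls alone, where the background was lower. The self-test of the fit ran on simulated counts. DESeq2 1.42.0 and other scalings, filters and left-out libraries were alternatives. Depth was 4157947 to 15244017 counts per library; reads are not independent molecules, so intervals and the limit of 3 counts for a gene at 0 cover counting error only.

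The genes, lists and tests were chosen with earlier results of these data known. Values are given in every library for the highest and the smallest-p gene of each role, the 3 most positive and 3 most negative fold changes and genes whose direction changed with correction while passing a test, and, from each pathway list, for the gene with the smallest p in each direction that passed. Some further genes, outside this rule, are given in the same way, and marker genes are given as sums. Sequences came from RefSeq (GRCm38.p6), and UTRs from GENCODE M21.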

Additional observations from a re-analysis of the deposited data

How the results depend on the processing

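As deposited, 0 genes of the machinery rose under any other scaling or filter of uncorrected counts or without any 1 library, and the number that fell was 28 to 44 with DESeq2, RLE and upper-quartile factors, without mitochondrial genes and with other filters. It was 21 with library size alone and 10 when libraries were scaled on the secreted plasma protein genes, a scaling that put the median of all genes at 1.89. Those 10 (Srp72, Sec61b, Sec61g, Sec62, Ssr3, Spcs1, Spcs2, Dad1, Herpud1 and Derl1) fell under all 6 other scalings and in all 6 fits without 1 library. Without 1 library each, 28 to 42 fell. Subtraction with no minimum above background gave 28 falls. With background correction 8 rose and 4 fell at a minimum of 10 times background, 1 and 10 at 5 times, and 12 and 2 at 20 times; fewer genes are then tested and the median of all genes moves from -0.30 at 5 times to -0.13 at 20 times.

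Deviations from the group means of same-numbered libraries correlated at 0.0071, 0.018 and -0.0060. These values cannot show whether such libraries share an animal, so a pairing stays unknown. With a replicate block 33 genes fell as deposited, and 15 rose and 5 fell after correction. The following corrected fits were added after the data were seen. With library size alone 1 rose and 7 fell, and scaled on the secreted plasma protein genes 0 rose and 16 fell. Without 1 library each, 2 to 16 rose and 2 to 5 fell: 2 fell without control 2 and without control 3. Scaled on the secreted plasma protein genes, the corrected value of Ssr1 was -0.075.

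Log2 fold changes that were below 0 as deposited and above 0 under another setting were these. With library size alone, 6 genes were Rpn1 0.15, Pdia3 0.14, Pdia4 0.17, Pdia6 0.13, Calr 0.21 and Uggt1 0.12. Scaled on the secreted plasma protein genes, 13 were Ssr1 0.13, Spcs3 0.31, Rpn1 0.42, Rpn2 0.26, Stt3a 0.24, Pdia3 0.29, Pdia4 0.25, Pdia6 0.27, P4hb 0.15, Calr 0.44, Canx 0.15, Uggt1 0.63 and Hsp90b1 0.022. Background-corrected at a minimum of 10 times, 24 were Sec61a1 0.48, Ssr1 1.06, Ssr2 0.63, Spcs3 1.29, Rpn1 1.51, Rpn2 1.38, Ddost 1.13, Stt3a 1.18, Stt3b 0.087, Pdia3 1.45, Pdia4 1.41, Pdia6 1.42, P4hb 1.30, Calr 1.57, Canx 1.27, Uggt1 1.43, Hspa5 0.90, Hsp90b1 1.18, Hyou1 0.55, Sdf2l1 0.21, Dnajb9 0.35, Dnajb11 0.60, Sel1l 0.65 and Edem1 0.084. At 5 times, 19 were Ssr1 0.56, Ssr2 0.14, Spcs3 0.78, Rpn1 1.02, Rpn2 0.88, Ddost 0.65, Stt3a 0.70, Pdia3 0.98, Pdia4 0.95, Pdia6 0.95, P4hb 0.82, Calr 1.09, Canx 0.77, Uggt1 0.94, Hspa5 0.45, Hsp90b1 0.70, Hyou1 0.089, Dnajb11 0.11 and Sel1l 0.17. At 20 times, 31 were Sec61a1 0.84, Sec63 0.17, Ssr1 1.43, Ssr2 1.00, Ssr3 0.12, Ssr4 0.35, Spcs2 0.014, Spcs3 1.67, Rpn1 1.87, Rpn2 1.76, Ddost 1.504, Stt3a 1.52, Stt3b 0.45, Ostc 0.26, Pdia3 1.81, Pdia4 1.75, Pdia6 1.77, P4hb 1.66, Calr 1.93, Canx 1.64, Uggt1 1.79, Hspa5 1.23, Hsp90b1 1.54, Hyou1 0.88, Sdf2l1 0.58, Dnajb9 0.73, Dnajb11 0.98, Dnajc3 0.34, Sel1l 1.02, Derl1 0.10 and Edem1 0.48. With background subtracted and no minimum, 0 of the 44 were above 0. The cause of the changes of sign was not tested. Depth limits the low genes: Srp54a could not be tested, and corrected values of genes near the background rest on few counts.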
